A study of Mus musculus with 11 samples.

Results

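Ddx5, Selenot, Ppia and Ppp2r1a are protein-coding genes of the mouse, and Gm12183, Selenot-ps (older name Gm15359), E030024N20Rik and Gm11838 are their processed copies elsewhere in the genome. These 8 genes, of 38293 genes in the count files, form 4 pairs of a parent and a copy. The copies were chosen by their measured difference between FD and CD mice, and each parent was then found by sequence. All 8 were among the 20589 genes whose counts summed to 10 or more in the 11 libraries, which is the set tested below.

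The samples were whole hippocampi of F1 mice. CD mice were born to dams whose diet held 2.3 mg folic acid per kg, and FD mice to dams whose diet held 40 mg per kg, both fed before conception. There were 6 CD mice (3 females, 3 males) and 5 FD mice (3 females, 2 males). All 11 were 14 weeks old, wildtype, and from the cross 129S6/SvEv x C57BL/6J, whereas the reference genome is that of C57BL/6J. The total RNA was read as 50-base single-end reads, and the libraries held 11737554 to 44447006 counts on genes. With 6 markers of hippocampal neurons the summed level was 1010 to 1168 CPM (counts scaled by library size, with TMM factors) in CD mice and 1078 to 1238 in FD mice. Markers of neighbouring tissue were low, at 34.1 to 85.7 CPM against 30.2 to 42.9 for choroid plexus, 71.8 to 86.3 against 77.97 to 86.4 for thalamus, and 38.0 to 49.5 against 38.7 to 77.5 for striatum (CD against FD). None of the genes in these 4 lists, nor of the lists for oligodendrocytes and blood, was called between the diets.

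A processed pseudogene arises when an mRNA is copied back into DNA and inserted at a new place in the genome. It therefore has no introns, carries the joined exons of its parent, and usually lacks the parent's promoter. Because it resembles the parent's mRNA, a short read from either may match both, and a pipeline that keeps only reads with a single place loses those reads. The 4 parents do unrelated work. Ddx5 is a DEAD-box RNA helicase that acts in splicing, transcription and microRNA processing. Selenot is a selenoprotein of the endoplasmic reticulum, whose selenocysteine is read from a UGA codon. Ppia is cyclophilin A, a peptidyl-prolyl isomerase and the target of cyclosporin A. Ppp2r1a is the alpha isoform of the scaffold subunit that holds protein phosphatase 2A (PP2A) together.

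All positions are on GRCm38. Ddx5 (ENSMUSG00000020719) lies on the minus strand of chromosome 11, from 106780355 to 106789185, and its copy Gm12183 (ENSMUSG00000082454) on the minus strand of the same chromosome, from 48751867 to 48753714. Selenot (ENSMUSG00000075700) lies on the plus strand of chromosome 3, from 58576636 to 58593133, and Selenot-ps (ENSMUSG00000081920) on the plus strand of chromosome 8, from 19579940 to 19580532. Ppia (ENSMUSG00000071866) lies on the plus strand of chromosome 11, from 6415443 to 6419817, and E030024N20Rik (ENSMUSG00000057990) on the minus strand of chromosome 19, from 16164312 to 16164805. Ppp2r1a (ENSMUSG00000007564) lies on the plus strand of chromosome 17, from 20945311 to 20965916, and Gm11838 (ENSMUSG00000083280) on the plus strand of chromosome 4, from 14766335 to 14766565. Gm12183 and Selenot-ps stood between genes, whereas E030024N20Rik lay within an intron of Gnaq and Gm11838 within an intron of Lrrc69, each on the strand opposite to its host.

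The copies differed in how much of the parent they had kept. Gm12183 carried the whole coding part of Ddx5 in 1848 bases, with 98.54% identity, 27 substitutions and no gap. All 12 exon junctions inside the aligned part of Ddx5 were joined in it, and the longest stretch without a difference ran for 239 bases. E030024N20Rik carried the whole coding part of Ppia at 96.57% identity, with 16 substitutions, 1 missing base and all 4 junctions of the Ppia transcript. Selenot-ps matched 99.5% of the coding part of Selenot at 92.58% identity, with 36 substitutions, an insertion of 8 bases and 4 of the 5 junctions. Gm11838 was a short remnant, since its 224 aligned bases covered 12.7% of the Ppp2r1a coding part, at 94.64% identity with 12 substitutions and 2 of the 14 junctions. Of the 91 substitutions in all, 66 were transitions and 25 transversions.

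The coding sequence was broken in some copies and not in others. Gm12183 kept an ATG and a final TAA in frame, and 12 of its 27 changed codons gave another amino acid. In Selenot-ps the substitution C105G, counted from the first base of the Selenot coding part, turned codon 35 into a stop, and 25 of 34 changed codons gave another amino acid. The inner TGA of Selenot at codon 49, which encodes selenocysteine, was still present. The missing base of E030024N20Rik and the insertion of Selenot-ps each shifted the reading frame.

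For each pair the ungapped 50 bases with the most differences are shown, because reads from such stretches can be placed on the copy. Capitals mark the bases that differ, and all run 5′ to 3′ on the strand of the gene. The copy stretches are chr11:48752521-48752570, chr8:19580083-19580132, chr19:16164596-16164645 and chr4:14766355-14766404.
Gm12183: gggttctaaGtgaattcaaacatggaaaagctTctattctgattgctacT
Ddx5: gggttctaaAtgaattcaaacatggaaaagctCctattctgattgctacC
Selenot-ps: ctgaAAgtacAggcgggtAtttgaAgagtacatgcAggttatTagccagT
Selenot: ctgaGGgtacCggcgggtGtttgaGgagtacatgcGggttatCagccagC
E030024N20Rik: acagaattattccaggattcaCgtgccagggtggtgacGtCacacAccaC
Ppia: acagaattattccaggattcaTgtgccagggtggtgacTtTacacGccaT
Gm11838: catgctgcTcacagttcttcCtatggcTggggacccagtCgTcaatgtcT
Ppp2r1a: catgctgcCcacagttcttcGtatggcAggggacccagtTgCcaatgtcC

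In these ungapped stretches, Gm12183 had 3 differences from Ddx5 in 50 bases, E030024N20Rik 5 from Ppia, Gm11838 6 from Ppp2r1a and Selenot-ps 8 from Selenot. With missing and extra bases counted too, the most was 7 for E030024N20Rik and 11 for Selenot-ps. Other stretches did not differ at all. The next sequences lie over an exon junction of the parent and are identical in parent and copy; capitals mark the last base of one exon and the first of the next (chr11:48753183-48753232 and chr19:16164681-16164730 in the copies). By its sequence alone, a read of either stretch cannot be given to the parent or to the copy. How the aligner placed such reads was not tested.
Gm12183 and Ddx5: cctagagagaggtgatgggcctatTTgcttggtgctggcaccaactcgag
E030024N20Rik and Ppia: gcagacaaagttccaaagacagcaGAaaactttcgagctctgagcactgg

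Motifs of the parents also survived in the copies. The codons for the DEAD motif that names the helicase family (capitals) were the same in Gm12183 and Ddx5, with 1 difference beside them (chr11:48752950-48752985).
Gm12183: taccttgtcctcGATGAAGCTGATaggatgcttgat
Ddx5: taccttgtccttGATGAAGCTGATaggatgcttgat
The selenocysteine codon (capitals) was kept in Selenot-ps among 4 differences in 27 bases (chr8:19580072-19580098).
Selenot-ps: attcgtgtatccTGAaagtacaggcgg
Selenot: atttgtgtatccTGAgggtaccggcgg

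How much of each gene a 50-base read could mark as its own was counted from all 50-base windows of the GENCODE M21 transcripts, on both strands. Of the windows of Gm12183, 1004 of 1799 (55.8%) occurred in no other annotated gene and 795 also in Ddx5. Of those of E030024N20Rik, 211 of 445 (47.4%) occurred in no other gene, 149 also in Ppia and 85 in other genes but not in Ppia. Almost all windows of the other copies were their own, with 538 of 544 (98.9%) in Selenot-ps and 179 of 182 (98.4%) in Gm11838. Among the parents, Ppia stood apart: none of its 446 coding windows was its own, as they recurred in its many copies, whereas 512 of the 1121 windows of its whole transcript were. The coding windows in no other gene came to 55.6% for Ddx5, 98.9% for Selenot and 99.8% for Ppp2r1a. These 512 windows all reached outside the coding part of Ppia, so by sequence alone single-place reads cover only part of this gene.

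How many bases separated a stretch from the parent varied between the copies. In 40.8% of the 50-base stretches of Gm12183 the difference from Ddx5 was a single base and in 44.2% there was none. For E030024N20Rik against Ppia these shares were 21.5% and 33.4%, for Gm11838 against Ppp2r1a 42.9% and 1.7%, and for Selenot-ps against Selenot 25.7% and 1.1%. Stretches with 3 or more differences were 10 of 1799 in Gm12183 and 129 of 446 in E030024N20Rik. They were 80 of 175 in Gm11838 and 321 of 544 in Selenot-ps. How many reads were given to the wrong member of a pair was not tested. Along Gm12183 and E030024N20Rik the own and the shared windows alternated in blocks (the map of the copies).

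**Figure D1:**
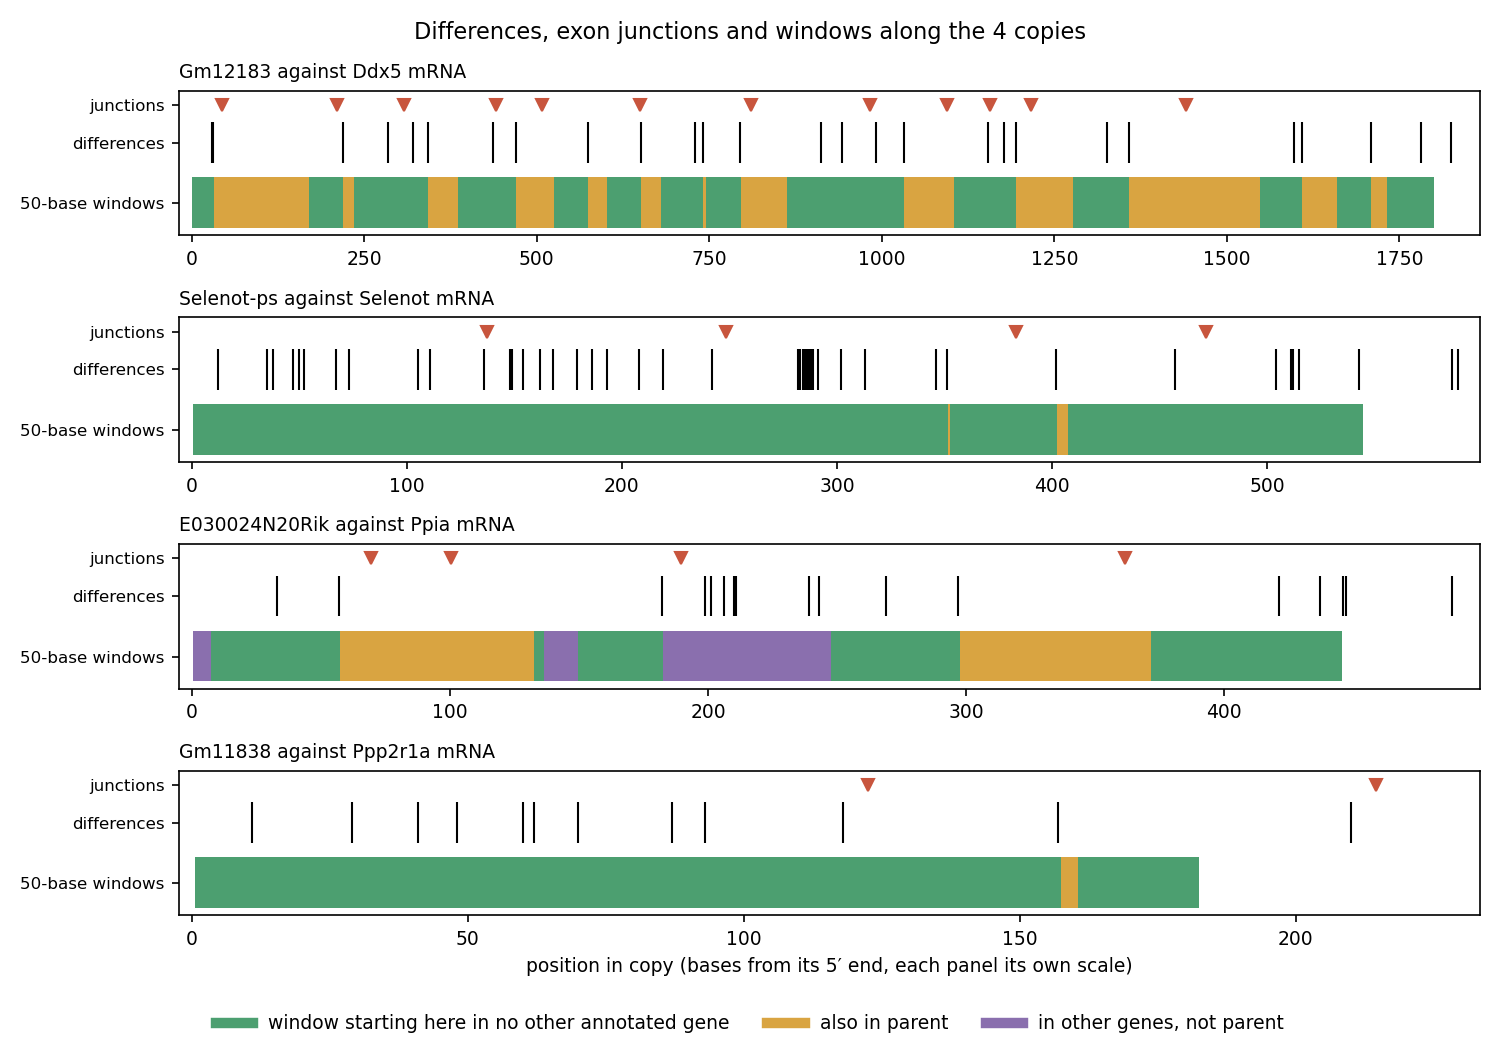
Each of the 4 copies from its 5′ end (x axis, bases, each panel on its own scale), with triangles at exon junctions of the parent, black lines at bases that differ from the parent, and a band coloured by where the 50-base window starting at that base also occurs. Gm12183 shared 795 of 1799 windows with Ddx5 in blocks, E030024N20Rik shared 149 of 445 with Ppia and 85 with other genes only, and nearly all of Selenot-ps and Gm11838 was green, that is, their own.

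Every parent was counted more densely than its copy, and Gm12183 more densely than the other copies. Per kb of exon, Ddx5 had a mean of 137.2 CPM ± 9.64 (SD, n = 11), Selenot 54.8 ± 2.31, Ppp2r1a 168.5 ± 15.3 and Ppia 6.55 ± 0.465. The copies had 10.4 CPM per kb ± 1.57 (Gm12183), 1.09 ± 0.807 (Gm11838), 0.703 ± 0.557 (E030024N20Rik) and 0.465 ± 0.404 (Selenot-ps), over the same 11 mice. In this order of the 1443 tested processed pseudogenes, Gm12183 was at rank 59, Gm11838 at 387, E030024N20Rik at 491 and Selenot-ps at 597. The SDs of the last 3 were nearly as large as their means, as they stood at different levels in CD and FD mice.

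Which diet had been fed to the dams was the comparison of the study, and the copies were selected on it. The FD and CD values below, with the ranks and calls of the copies, are therefore a description and not a test. In the whole table, edgeR called 14 genes at an adjusted p under 0.1 (0.068% of those tested), all higher in FD mice, and 25 (21 higher, 4 lower) with the replicate number as a block. Leaving out any single mouse gave 3 to 12 calls. E030024N20Rik was at rank 4 by p and Gm11838 at rank 12, inside the 14, and Selenot-ps at rank 18 and Gm12183 at rank 36, outside them. This membership was not stable. Gm11838 was no longer called when any single mouse was left out, and E030024N20Rik was no longer called without CD male 1, FD female 1 or FD female 3. Selenot-ps was called without FD male 2, with DESeq2 and with no count filter. With the block all 4 copies were among the 25. Levels in a whole hippocampus do not tell fewer cells from less RNA per cell.

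E030024N20Rik had few counts in both groups and, scaled for depth, was higher in the FD mice. It had 2, 3 and 9 counts in the CD males and 4, 2 and 0 in the CD females, against 27, 6 and 16 in the FD females and 13 and 8 in the FD males. Scaled for depth, CD mice ranged from 0 to 0.203 CPM with a median of 0.142, and FD mice from 0.457 to 0.785 CPM with a median of 0.619. The lowest FD mouse, female 2, was thus above the highest CD mouse, male 3, and the groups did not overlap. The fitted log2 fold change was 2.24 (standard error, SE, 0.347), and the means were 0.618 CPM ± 0.121 (SD, n = 5) against 0.122 ± 0.0745 (SD, n = 6). The CD female with no count had a depth at which 3 counts, taken as the limit, would be 0.2 CPM.

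Its parent Ppia had nearly the same range in both groups. Ppia had 275 to 938 counts in CD mice and 309 to 724 in FD mice, or 21.2 to 25.5 CPM with a median of 23.6 against 20.4 to 24.1 with a median of 22.6. The FD mean was 22.3 CPM ± 1.57 (n = 5) against 23.5 ± 1.62 (n = 6), a log2 fold change of -0.07 (SE 0.0681). Counted within each library, E030024N20Rik had 27.9 counts per 1000 counts of Ppia in FD mice (SD 6.6, range 19.4 to 37.3) and 5.32 in CD mice (SD 3.37, range 0 to 9.60), so that the FD ratio was 5.24 times the CD ratio. This ratio needs no scaling between libraries, and it did not overlap between the groups. Each ratio of a copy to its parent uses the same counts of the chosen copy, so it is no separate evidence.

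Gm11838, the remnant of the PP2A scaffold gene, had still fewer counts. The CD males had 5, 1 and 7 counts and each CD female had 1, against 13, 5 and 11 in the FD females and 10 and 7 in the FD males. In CPM the CD mice ranged from 0.0314 to 0.179 with a median of 0.0760, and the FD mice from 0.378 to 0.495 with a median of 0.455. Every FD mouse was above every CD mouse, and the FD mice lay close together, at 0.437 CPM ± 0.0545 (n = 5) against 0.0956 ± 0.0596 (n = 6). The log2 fold change was 1.98 (SE 0.367).

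Ppp2r1a itself had 6489 to 24460 counts in CD mice and 6880 to 19203 in FD mice. Its level was 548 to 685 CPM (median 570) in CD mice and 501 to 622 CPM (median 558) in FD mice, with means of 592 ± 54.8 and 554 ± 45.9. The log2 fold change was -0.10 (SE 0.0679), and the ranges overlapped. Per 1000 counts of Ppp2r1a, Gm11838 had 0.793 in FD mice (SD 0.124, range 0.677 to 0.988) and 0.166 in CD mice (SD 0.107, range 0.0458 to 0.305), and the groups did not overlap.

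Selenot-ps showed the widest spread among FD mice relative to its mean (a coefficient of variation of 37.1% in CPM, against 5.11% to 19.6% for the other 7 genes). The CD males had 1, 0 and 8 counts and the CD females 3, 1 and 3, against 21, 9 and 11 in the FD females and 10 and 3 in the FD males. FD male 2 thus had 3 counts, whose exact 95% Poisson interval is 0.619 to 8.77, the same number as CD female 3. The CD range was 0 to 0.200 CPM (median 0.0898) and the FD range 0.212 to 0.685 CPM (median 0.476), so that the groups were parted by the small step from 0.200 to 0.212. The means were 0.488 CPM ± 0.181 (n = 5) and 0.0993 ± 0.0785 (n = 6), and the log2 fold change was 2.19 (SE 0.436).

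Selenot, the selenoprotein gene, did not separate the groups. It had 2121 to 8044 counts in CD mice and 2508 to 6159 in FD mice, which gave 181 to 198 CPM (median 184.5) and 179 to 205 CPM (median 189.9). The group ranges overlapped, with means of 187 ± 6.7 and 190.2 ± 9.71 and a log2 fold change of 0.02 (SE 0.0469). Against the parent, Selenot-ps had 2.60 counts per 1000 in FD mice (SD 1.02, range 1.03 to 3.59) and 0.535 in CD mice (SD 0.428, range 0 to 1.07). On this scale FD male 2, at 1.03, was below CD female 3, at 1.07, so the groups overlapped.

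Gm12183, the full-length copy of Ddx5, was counted far more often and differed far less. It had 498, 331 and 761 counts in the CD males and 478, 230 and 235 in the CD females, against 708, 318 and 465 in the FD females and 437 and 327 in the FD males. The CD mice ranged from 15.0 to 19.6 CPM (median 17.4) and the FD mice from 19.3 to 24.2 CPM (median 20.8). The groups overlapped by a single mouse on each side, since FD female 3 was just below CD female 2, and in 29 of the 30 possible pairs of an FD and a CD mouse the FD mouse was higher. The means were 21.6 CPM ± 2.02 (n = 5) and 17.1 ± 1.65 (n = 6), a log2 fold change of 0.33 (SE 0.0798).

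Ddx5 had 9382 to 35003 counts in CD mice and 11234 to 25094 in FD mice, at 701 to 854 CPM (median 795.5) and 729 to 857 CPM (median 831). The ranges nearly coincided, and the means of 784 ± 53.3 and 802 ± 62.9 CPM gave a log2 fold change of 0.03 (SE 0.0608). Set against Ddx5 in the same library, Gm12183 became more uniform within each group. It had 26.9 counts per 1000 of Ddx5 in FD mice (SD 1.41, range 25.03 to 28.3) and 21.9 in CD mice (SD 1.40, range 20.5 to 24.5), with no overlap and 1.23 times as many in FD mice.

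**Figure D2:**
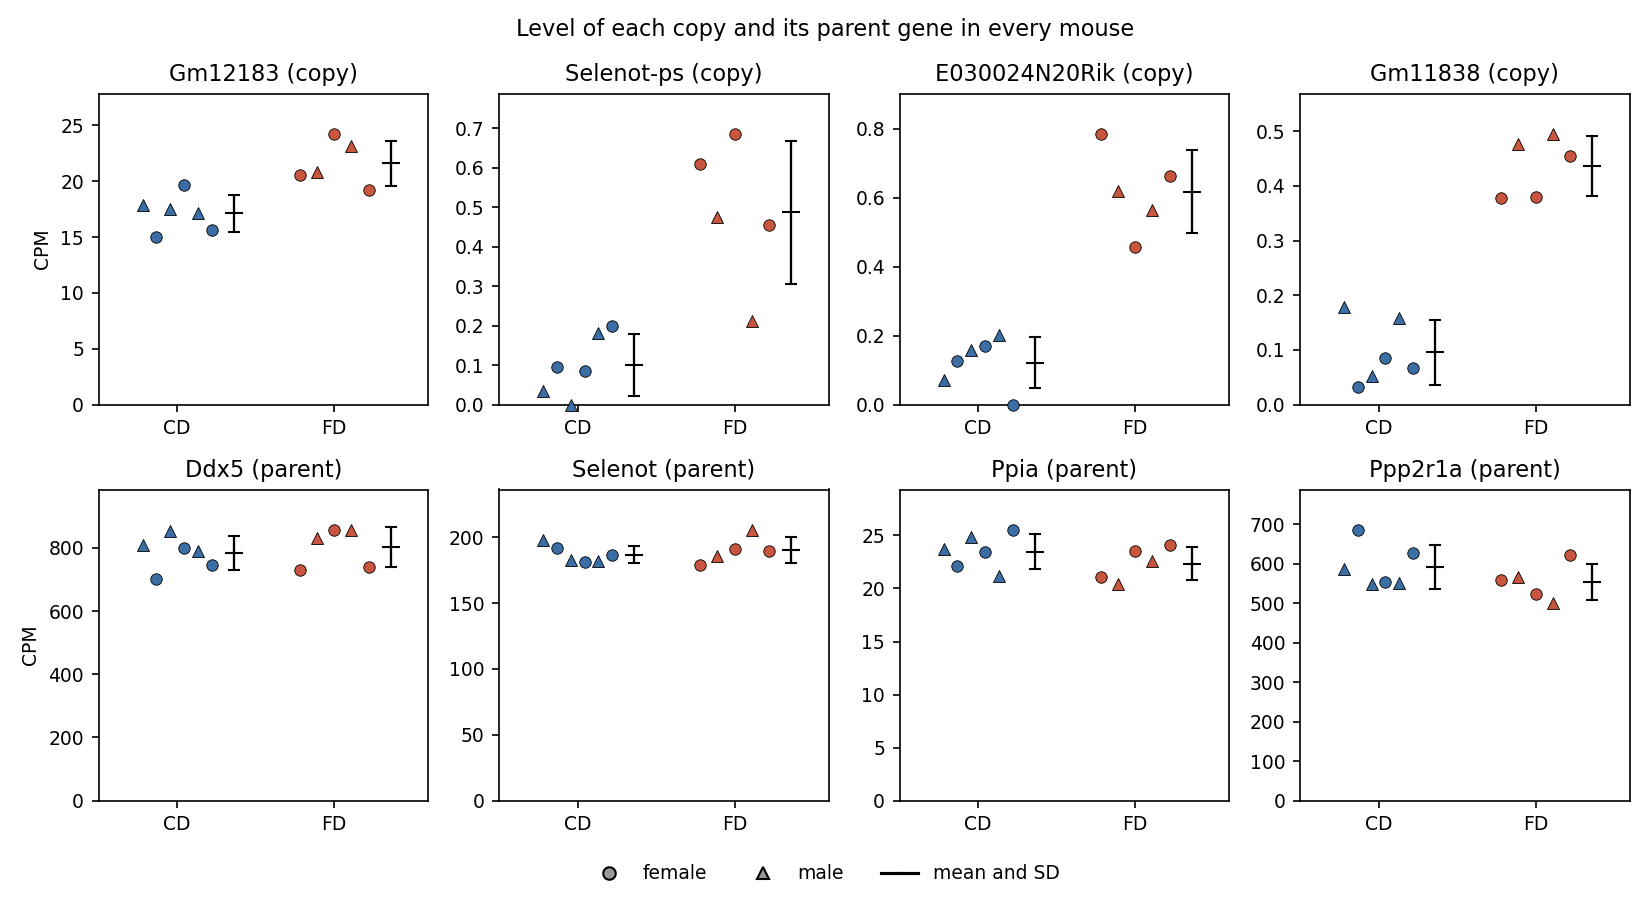
Level in CPM (y axis, from 0) of the 4 copies (upper row) and their parents (lower row) in the 6 CD and 5 FD mice (x axis), with circles for females, triangles for males, and a bar for the mean and SD. The FD mice were above all CD mice for Selenot-ps, E030024N20Rik and Gm11838 and overlapped for Gm12183, whereas the ranges of each parent overlapped, with that of Ppp2r1a reaching lower in FD mice.

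Of the 8 genes, 3 were thus without overlap between the diets in CPM, all copies and all higher in FD mice; over all tested genes every FD mouse was above every CD mouse for 83 (0.403%), below for 21 (0.102%), and one or the other for 104 (0.505%). The choice of the copies used this contrast, so nothing is read from that count. The differences were small as amounts of RNA. The difference of Gm12183 between FD and CD mice, 4.45 CPM, equalled 0.568% of the CD level of Ddx5, that of Selenot-ps 0.208% of Selenot, that of Gm11838 0.0577% of Ppp2r1a, and that of E030024N20Rik 2.11% of the counted Ppia. Each is below the SD of the parent among CD mice.

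**Figure D3:**
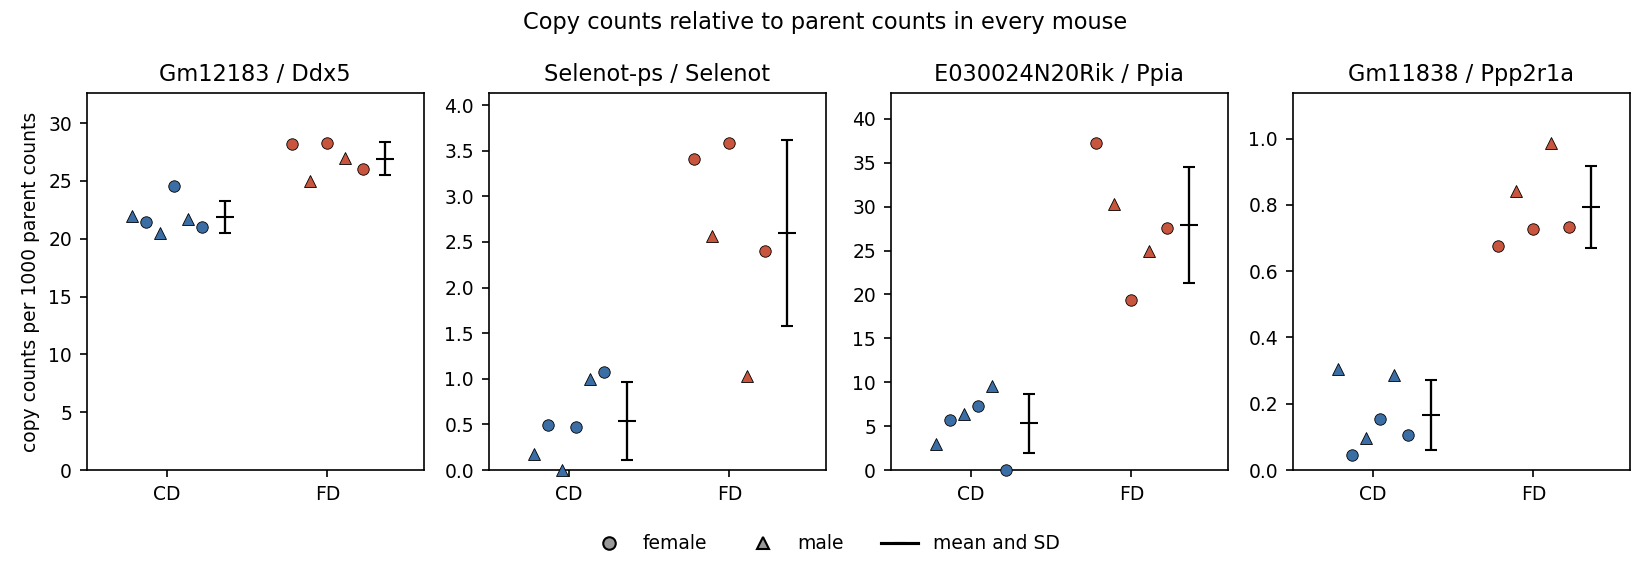
Counts of each copy per 1000 counts of its parent in the same library (y axis, from 0) for the 6 CD and 5 FD mice (x axis), with circles for females, triangles for males, and a bar for the mean and SD. The groups did not overlap for Gm12183, E030024N20Rik and Gm11838, and for Selenot-ps 1 FD male lay among the CD mice.

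Within groups no spread well beyond counting error was seen in the low copies, whose few counts could hardly show it. The chi-square of the counts against equal shares of depth, per degree of freedom, was 0.928 in CD and 0.473 in FD mice for E030024N20Rik, 0.987 and 0.142 for Gm11838, and 1.38 and 1.04 for Selenot-ps, where 1 is the value of pure counting error. For Gm12183 it was 3.07 and 3.3, and for the parents it ranged from 2.49 to 142. In the 5 pairs of a CD and an FD mouse with the same sex and number, each of the 4 copies was higher in the FD mouse 5 of 5 times. For the copies without overlap in CPM it could not come out otherwise. All 4 were chosen by this contrast, so nothing is read from their count. Ddx5 was higher in the FD mouse in 4 pairs, Selenot in 3, Ppia in 1 and Ppp2r1a in 0.

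The direction was shared with processed pseudogenes in general. Besides the 4 copies, 1439 processed pseudogenes were tested, of which 71.7% had a positive log2 fold change, 9 (0.625%) were called, all higher, and 62 (4.31%) were higher in every FD mouse than in every CD mouse. Their median log2 fold change was 0.203, against -0.00405 over all genes. Mouse by mouse, their mean deviation in log2 CPM from the CD mean was -0.0712 to 0.0489 in CD mice and 0.156 to 0.238 in FD mice, with no overlap, also with RLE scaling (-0.0662 to 0.0346 and 0.163 to 0.236). Over protein-coding genes it was -0.0212 to 0.019 and -0.0199 to 0.0388. Other classes of low-count genes did not share the shift to this extent, as the median was 0.05 over 102 unprocessed pseudogenes, -0.01 over 641 long intergenic noncoding RNA genes and 0.01 over 921 antisense RNA genes. The fold changes of Selenot-ps, E030024N20Rik and Gm11838 were above the 95th percentile of the other processed pseudogenes, which was 1.75 on the log2 scale. Of these other pseudogenes, 50 had a value over 2. Because the copies were chosen by this same contrast, nothing is read from their place above that percentile. What moved the class, and its part in the values of the 4 copies, was not tested.

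**Figure D4:**
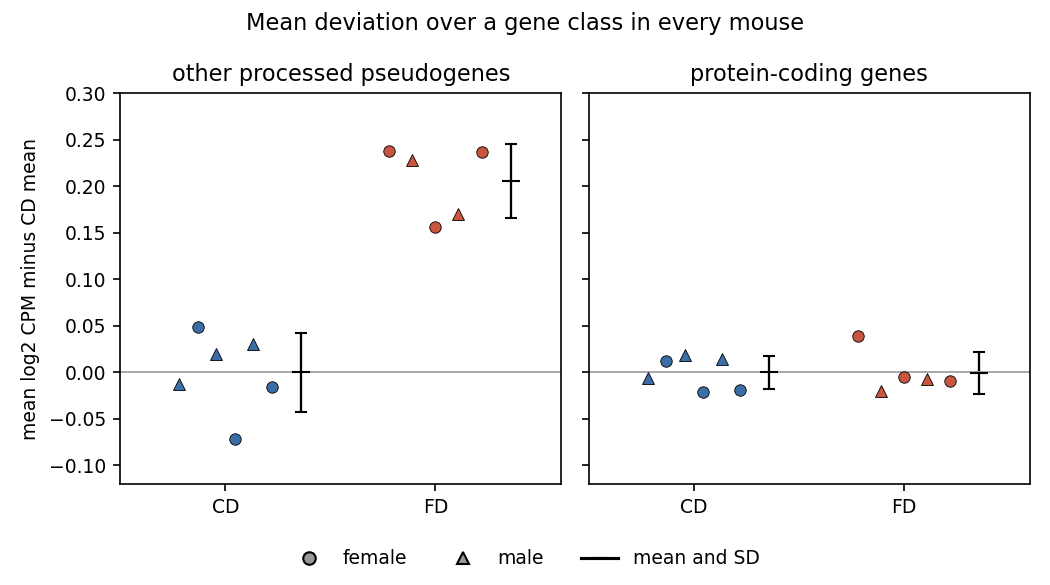
Mean over a gene class of log2 CPM minus the mean of the CD mice (y axis) in the 6 CD and 5 FD mice (x axis), for 1439 processed pseudogenes other than the 4 copies (left) and for 16242 protein-coding genes (right), with a bar for the mean and SD. The processed pseudogenes were at 0.156 to 0.238 in FD mice, above all CD mice, and the protein-coding genes overlapped.

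The shares of reads that the files list as lost did not separate the groups. Reads with more than a single place were 13.7% to 16.01% of all that aligned in CD mice and 13.8% to 15.1% in FD mice, and reads in no gene were 7.01% to 11.03% and 8.18% to 10.5%.

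Ppia has many other copies, which allows its chosen copy to be set beside them. The annotation held 63 with at least 80% identity, of which 28 were in the count files and 14 were tested. None was called and none was without overlap, against the 0.068% and 0.505% of all genes. Of the 1439 processed pseudogenes besides the 4 copies, 0.625% were called and 4.31% were higher in every FD mouse. At shares this low, none among 14 genes carries little. Of the 14, 11 had a positive fitted log2 fold change and 3 a negative one, with a median of 0.60, whereas by mean CPM 12 were higher in FD mice and 2 lower. For 3 of the 14, among them Gm14046 and Gm6065, the sign of the fit ran against that of the means, so single signs at these low counts carry little. The 3 most counted had smaller differences than E030024N20Rik. Gm9234 was at 0.454 CPM ± 0.134 in FD and 0.484 ± 0.113 in CD mice (log2 -0.19, SE 0.258), Gm14046 at 0.336 ± 0.158 and 0.345 ± 0.136 (0.23, SE 0.357), and Gm6065 at 0.186 ± 0.104 and 0.154 ± 0.136 (-0.05, SE 0.53). Their identity to Ppia was 98.171%, 96.66% and 95.951%. These 3 stood in CD mice above or near the CD level of E030024N20Rik, and their groups overlapped. Ddx5 had 1 other copy with at least 80% identity, which had 1 count in all 11 mice, Ppp2r1a had 2, which were not analysed here, and Selenot had 0.

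A host or neighbour gene was examined for 3 of the copies. Gnaq, which encodes a G protein alpha subunit and holds E030024N20Rik in an intron on the opposite strand, had 4704 to 17017 counts in CD mice and 4944 to 13197 in FD mice (log2 fold change 0.02, SE 0.0543, edgeR adjusted p = 1). Lrrc69 had 0 to 3 counts in either group, too few for a usable fold change (SE 1.14), and fewer than Gm11838 inside it had in any FD mouse. Rack1, the nearest gene after Gm12183 at 46618 bases, had a log2 fold change of -0.05 (SE 0.0638, edgeR adjusted p = 1). Whether the counting used the strand was not given in the sources used here, so reads of an intron of a host and of the copy in it cannot be told apart by strand.

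The families of the 4 parents were listed by function to see whether relatives moved with the diet. None of the 22 tested relatives and partners of Ddx5 was called between FD and CD mice. Nor was any of 21 selenoprotein genes, 15 cyclophilin genes or 24 PP2A genes (background 0.068%). None of these genes had an unadjusted edgeR p under 0.05. Over all genes 534 of 20589 did, a low share, so their absence here carries little. The family medians were -0.02, -0.04, -0.01 and -0.03 on the log2 scale. Among the helicases, Ddx17, the closest relative of Ddx5, was at 378 CPM ± 29.1 in FD and 376 ± 20.8 in CD mice (log2 0.01, SE 0.0575), and Ddx54 had the smallest p of its list, at -0.13 (SE 0.0847). Sephs2, which makes the selenium donor for selenocysteine, was at -0.14 (SE 0.0681), and Selenow, the most counted selenoprotein gene, at -0.10 (SE 0.0878). Of the cyclophilins, Ppib of the endoplasmic reticulum was at -0.08 (SE 0.0568), and Ranbp2 of the nuclear pore at 0.04 (SE 0.0795). Of the regulatory B subunits of PP2A, Ppp2r2d was at -0.11 (SE 0.0525) and Ppp2r2c at -0.01 (SE 0.0476).

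The sexes were compared with diet as a covariate, a contrast that the choice of the copies did not use. None of the 8 genes was called between females and males, where edgeR called 1257 genes (6.11%) and the sexes did not overlap for 366 (1.78%). That number of calls was unstable, at 18 to 3244 when a single mouse was left out. Ddx5 had the smallest p, at 762 CPM ± 56.1 in the 6 females and 828.5 ± 28.4 in the 5 males, with a log2 difference of -0.13 (SE 0.0509, edgeR adjusted p = 0.172). Without CD female 2 or without FD female 2 the adjusted p of Ddx5 fell to 0.0769 and 0.0453. Ppp2r1a was at 595 ± 60.1 CPM in females and 551 ± 31.6 in males (log2 0.12, SE 0.0594, edgeR adjusted p = 0.262, and 0.0929 without CD female 2). The copies had log2 differences of -0.07 (SE 0.0772) for Gm12183, 0.53 (SE 0.438) for Selenot-ps, -0.04 (SE 0.357) for E030024N20Rik and -0.54 (SE 0.364) for Gm11838, so that at this depth only large sex differences could be seen in the last 3.

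Of the 82 family genes tested, 6 (7.32%) were called between the sexes, a share near the 6.11% of all genes. In females Ddx3x, an X-linked helicase gene, was higher by 0.23 (SE 0.0455) and Dgcr8, a partner of Drosha in microRNA processing, was at -0.20 (SE 0.0604), with edgeR adjusted p-values of 0.0545 and 0.0914. Selenow was higher by 0.24 (SE 0.0638) and Gpx1, a glutathione peroxidase, by 0.26 (SE 0.0655), with adjusted p-values of 0.0733 and 0.0668. Ppie was higher by 0.29 (SE 0.0822) and Ranbp2 was at -0.22 (SE 0.057), with adjusted p-values of 0.084 and 0.0684. No PP2A gene was called.

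Whether the diet difference itself differed between females and males was tested as an interaction. No gene was called in that test (0%), 391 (1.9%) had an unadjusted edgeR p under 0.05, and DESeq2 called 0 as well. None of the 8 genes was among the 391. The largest term was that of Gm11838, at 1.11 (SE 0.82, edgeR adjusted p = 1), followed by E030024N20Rik at 0.72 (SE 0.809) and Selenot-ps at 0.33 (SE 1.02). With 2 FD males these errors are wide. In females alone the FD and CD difference was 2.65 (SE 0.56) for E030024N20Rik, 2.85 (SE 0.596) for Gm11838 and 2.21 (SE 0.485) for Selenot-ps, and in males alone 1.95 (SE 0.52), 1.76 (SE 0.554) and 1.89 (SE 0.772). These values split the contrast that chose the copies and are no separate evidence of its direction. Gm12183 was at 0.36 (SE 0.126) in females and 0.34 (SE 0.0912) in males.

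**Figure D5:**
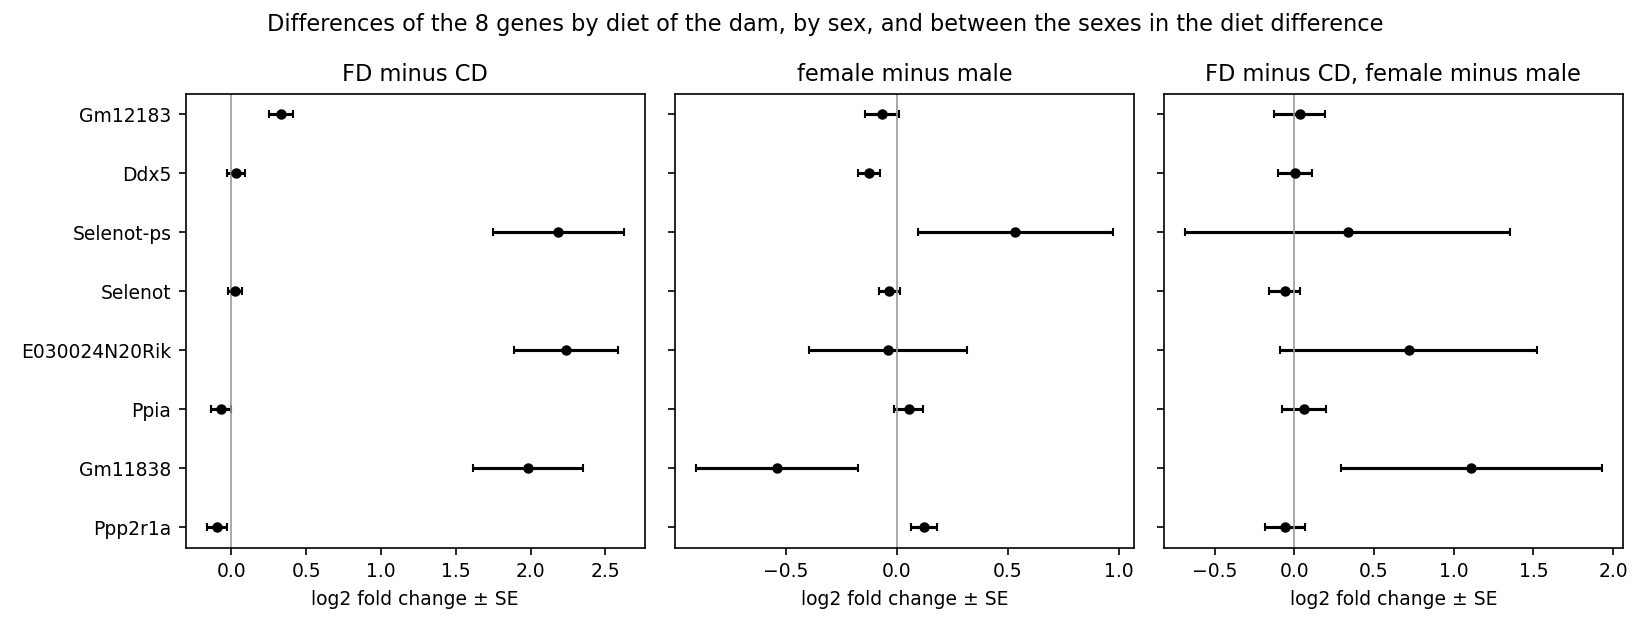
Fitted log2 fold changes (x axis) with standard errors for the 4 copies and 4 parents (y axis), for FD minus CD (left, not tested because the copies were chosen by it), female minus male (middle) and the difference of the diet effect between the sexes (right). On the left the copies lay between 0.33 and 2.24 and the parents between -0.10 and 0.03, and in the other panels none of the 8 genes was called.

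Whether a copy followed its parent was examined in the 6 CD mice alone, since the choice of the copies did not use differences among them. Gm12183 and Ddx5 had a Pearson r of 0.765 (exact permutation p = 0.0736, two-sided, adjusted over the 4 pairs 0.294) and a Spearman rho of 0.771 (exact permutation p = 0.103, adjusted 0.272). Without the 2 mice farthest from the median of Ddx5 the r was 0.818. For the others r was -0.208 (Selenot-ps), -0.652 (E030024N20Rik) and -0.517 (Gm11838), with exact permutation p-values of 0.704, 0.163 and 0.276, adjusted to 0.704, 0.325 and 0.369. The rho of these 3 was -0.0857, -0.714 and -0.257, with exact permutation p-values of 0.919, 0.136 and 0.658, adjusted to 0.919, 0.272 and 0.878. Without the 2 farthest mice these r turned to 0.325, 0.173 and 0.705, so the negative sign of each rested on those 2 mice. No pair passed.

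Over all 11 mice, the genes most like each member in log2 CPM were sought among the 14432 genes that averaged 1 CPM or more. These mice share the diet groups, so genes that differ between the diets are alike for that reason too. Nearest to Gm12183 were Gm12312 (r = 0.933), another processed pseudogene, and Mid1 (0.930); to Selenot-ps the processed pseudogenes Gm5421 (0.881) and Gm10327 (0.880); to Gm11838 the processed pseudogenes Pafah1b1-ps1 (0.894) and Gm13456 (0.875). E030024N20Rik was nearest to the coding genes Fzd7 (0.877) and Afap1 (0.868). The parents were nearest to other genes than their copies: Ddx5 to Prkag2os2 (0.977) and Zfp950 (0.974), Selenot to Gpbp1l1 (0.956) and Etf1 (0.950), Ppia to Rtl4 (0.883) and Uqcrh-ps1 (0.866), and Ppp2r1a to Arpc1a (0.981) and Cndp2 (0.979). Copy and own parent had an r of 0.60 for Gm12183, -0.08 for Selenot-ps, -0.56 for E030024N20Rik and -0.49 for Gm11838. Among the copies r was highest between E030024N20Rik and Gm11838 (0.839) and lowest between Gm12183 and Selenot-ps (0.584).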

How the data were processed

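The authors extracted total RNA with a column kit from flash-frozen hippocampi, sequenced 50-base single-end reads, aligned them with STAR to GRCm38 and counted unique alignments per gene with featureCounts. The deposited values are raw counts per Ensembl gene, with no normalization and 5 summary lines, which were left out of library sizes. The annotation release and the strand setting are not given in the sources used here. Intervals cover counting error only.

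Counts were fitted with edgeR 4.0.16 in R 4.3.3 (quasi-likelihood F test, TMM, summed counts of 10 or more, Benjamini-Hochberg over all tested genes, threshold 0.1), with diet as covariate for sex and with an added interaction term. Scripts were checked on data drawn with known changes. The changes were put into well-counted genes alone, so the check did not cover counts as low as those of Selenot-ps, E030024N20Rik and Gm11838. DESeq2 1.42.0, other filters and scalings, fits within a sex and without single mice were the alternatives. P-values measure the spread between mice, and litters are not given. Replicate numbers were checked for pairing over 14437 genes: same-numbered mice of the same sex in the 2 groups had correlated deviations from the group means in all 5 pairs (r = 0.307 to 0.54, all over the limit of 0.1), so a fit with this block was added. The own-numbered CD mouse was the best match in 4 of the 5 pairs, by a wide margin for female 2 (0.307 against -0.0185 for another CD mouse). The margin was smaller for female 1 (0.325 against 0.251), female 3 (0.54 against 0.526) and male 2 (0.418 against 0.417). For male 1 another CD mouse was higher (0.41 against 0.391). Whether shared sex alone gives such values was not tested. The pairing comes from this check, which does not establish it, and not from the labels. No library pair of a group agreed within sampling noise (chi-square per degree of freedom 4.393 to 30.22 over 25 pairs).

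Sequences came from GENCODE M21 transcripts (GRCm38), whose gene IDs matched 95.1% of those counted. Copies and parents were aligned with blastn 2.17.0, and windows were looked up in annotated transcripts, not in the whole genome. The ratio of copy to parent is compared as the log2 of the ratio of group means, since 2 of the CD mice had a count of 0 of a copy. Genes named are the 8 members, the 2 most alike to each, the smallest p and highest mean of each family list, up to 3 other copies per parent, and, chosen after their values were seen, relatives called between the sexes and host or neighbour genes. The members and lists were chosen with earlier results of these data known. The comparison of gene classes, with its RLE alternative, was added after the data were seen.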

Additional observations from a re-analysis of the deposited data

Results flagged for a closer look

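Of 24 sets of values looked at (each member and each copy-to-parent ratio in each diet group), 1 held a mouse far from the others, and chance alone flags about 1 in 20. In CD female 2, Gm12183 had 24.5 counts per 1000 counts of Ddx5, against 20.5 to 22.004 in the other 5 CD mice, a gap of 0.629 of the whole range. The same mouse had the highest CD level of Gm12183 in CPM, 19.6, while its Ddx5, at 801 CPM, was inside the range of the others. Its library was the smallest, at 11737554 counts on genes. Even so it lay below the lowest FD mouse, at 25.03.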

How the results depend on the processing

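The direction of the copies did not change with the processing. The copies were chosen by this contrast, so nothing is read from their steady direction. Gm12183 was higher in FD mice under all 20 alternatives (log2 0.29 to 0.37) and Selenot-ps, E030024N20Rik and Gm11838 under all 18 that kept them (1.89 to 2.62, 1.95 to 2.65 and 1.75 to 2.85, the last being 2.85 in females alone). These 3 were removed by edgeR's own filter and by a minimum of 10 counts in every mouse, so the result rests on genes near the limit of detection. Of the parents, Ddx5 (0.00377 to 0.08) and Selenot (-0.000453 to 0.08, higher in 19 of 20) stayed near 0, and Ppia and Ppp2r1a were lower under all 20.

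The number of calls between the diets was 18 with DESeq2, 15 with no count filter, 12 with sex as covariate and 8 with edgeR's filter. It was 1 with 10 counts in every mouse, 25 with the replicate block, 1 in females alone, 2 in males alone and 3 to 12 with a mouse left out. It was 3 without FD female 1 or FD female 3, 4 without CD male 3 or FD female 2, 5 without CD male 1, CD male 2 or FD male 1, 8 without CD female 3, 9 without CD female 1 or CD female 2, and 12 without FD male 2. The block changed no direction of a member, and with it Selenot-ps and Gm12183 joined the calls. Between the sexes it was 2645 with no count filter, 2043 with DESeq2, 37 without diet as covariate, 5 in CD mice alone and 18 to 3244 with a mouse left out (highest without CD female 2, lowest without CD male 1). For the interaction it was 10 with no count filter and 0 to 1 with a mouse left out (1 without CD female 3). The causes were not tested.

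Small differences turned sign. The sex difference of E030024N20Rik was 0.51 without diet as covariate and -0.22 to 0.11 with a mouse left out. The interaction of Ddx5 was -0.00605 with RLE scaling, -0.00608 with DESeq2, -0.00308 with edgeR's filter and -0.0918 to 0.0541 with a mouse left out. With a mouse left out the interactions ranged from -0.0714 to 0.146 (Gm12183), -0.132 to 0.00804 (Selenot), -1.57 to 1.11 (Selenot-ps), -0.0175 to 0.126 (Ppia) and -0.149 to 0.0333 (Ppp2r1a). The correlation of Gm12183 with Ddx5 in CD mice was 0.827 with the means of each sex removed. Its permutation p was 0.0403 before adjustment, but the orders crossed the sexes, so it is not exact and nothing is read from it. Windows in no other gene were 44.7% and 71.7% (Gm12183), 33.3% and 66.9% (E030024N20Rik) at 36 and 75 bases, and 90% (Selenot-ps) and 88.3% (Gm11838) at 36 bases.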
